A study of Mus musculus with 16 samples.

Results

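The genes described here are 34 that carry dietary fat through the absorptive cell of the small intestine, from uptake of fatty acids at the apical side to the release of chylomicrons. They were listed by name for their roles, not by a cut on measured values, though with earlier results of these data known. Their rows were found by gene identifier in a read count table of 55359 genes. All 34 had a row. 33 had enough reads to be tested, and Apoc2 did not. The table holds total RNA sequencing of 16 libraries from male C57BL/6N mice on a high fat diet. 4 mice had both Neurog3 alleles floxed and carried the Villin-CreERT2 transgene (mutants), and 4 had the same floxed alleles without it (controls). By the numbers in the library titles, each of the 8 mice gave 1 duodenum library and 1 ileum library, collected 5 weeks after tamoxifen. There were thus 4 groups of 4 libraries from separate animals. The Villin promoter drives a tamoxifen-dependent Cre throughout the gut epithelium, in absorptive cells as well as in the endocrine lineage that needs Neurog3. The controls have no Cre, so an effect of the transgene and of Cre activity cannot be told apart from the loss of Neurog3. The comparisons ask how loss of enteroendocrine cells bears on fat-handling genes in each region of the gut, and how those genes differ between the regions.

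Dietary triglyceride is split in the gut lumen, and fatty acids and monoacylglycerol enter the enterocyte, where binding proteins carry them to the endoplasmic reticulum. There they are activated to acyl-CoA, built back into triglyceride, and loaded by microsomal triglyceride transfer protein onto apolipoprotein B. The particle gains further apolipoproteins, leaves the endoplasmic reticulum in large transport carriers and is secreted into lymph, and triglyceride that is not exported is held in lipid droplets. The proximal small intestine takes up most dietary fat, and chylomicron secretion can be influenced by hormones of the enteroendocrine cells.

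Levels are given as CPM, the counts of a gene per M counts of its library, on library sizes normalised over all 16 libraries. The 4 mice of each genotype are numbered 1 to 4 in the order of the numbers in the library titles, a control mouse and a mutant mouse with the same number are unrelated, and values of 4 libraries are listed in that order. Differences are log2 fold changes with standard errors (SE). Adjusted p-values come from edgeR's quasi-likelihood test with Benjamini-Hochberg adjustment over all genes tested in the comparison, with a threshold of 0.05. Library depth was 40.9 to 67.2 M counts. Neurog3, the deleted gene, had 123 to 175 counts in each control duodenum library and 27 to 70 in each control ileum library, and 0 or 1 in each of the 8 mutant libraries. The tissue labels matched their markers: in controls the ileal bile acid genes Slc10a2 and Fabp6 were higher in the ileum by 7.77 and 13.18 on the log2 scale, and the duodenal factor Pdx1 was lower there (−5.23). Exocrine pancreas genes took 15.3% and 14.98% of counts in the duodenum of mutant mice 2 and 4, and between 0.00681% and 3.55% in the other duodenum libraries.

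Promoter sequence was read for the members whose results are the most distinct. RefSeq windows on GRCm38.p6 were found for 28 of the 34 genes, and the 250 bases before the annotated start were used. Fabp1 had the largest regional difference and Fabp2 none that passed the test, while Cd36, Acsl3 and Agpat2 differed between genotypes in the ileum. In each sequence, written 5′ to 3′ on the gene's strand, capitals mark matches to AGGTCA or its reverse complement TGACCT, to the sequence TATAAA, and to GGGCGG or its reverse complement CCGCCC.
Fabp1 (chr6:71199629-71199878, plus strand): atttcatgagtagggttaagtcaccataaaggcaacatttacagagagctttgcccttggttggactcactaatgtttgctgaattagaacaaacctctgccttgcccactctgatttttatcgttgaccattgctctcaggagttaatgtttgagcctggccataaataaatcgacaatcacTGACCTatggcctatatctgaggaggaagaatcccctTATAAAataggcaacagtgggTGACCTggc
Fabp2 (chr3:122894822-122895071, plus strand): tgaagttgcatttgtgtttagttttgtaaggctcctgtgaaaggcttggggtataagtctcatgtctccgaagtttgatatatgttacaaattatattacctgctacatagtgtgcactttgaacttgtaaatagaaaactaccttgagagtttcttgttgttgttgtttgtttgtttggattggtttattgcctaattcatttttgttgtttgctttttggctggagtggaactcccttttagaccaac
Cd36 (chr5:17835897-17836146, minus strand): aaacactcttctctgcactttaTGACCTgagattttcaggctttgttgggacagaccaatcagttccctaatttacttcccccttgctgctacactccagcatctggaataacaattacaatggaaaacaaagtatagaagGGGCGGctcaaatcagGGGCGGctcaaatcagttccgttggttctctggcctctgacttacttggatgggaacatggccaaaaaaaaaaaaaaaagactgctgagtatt
Acsl3 (chr1:78657575-78657824, plus strand): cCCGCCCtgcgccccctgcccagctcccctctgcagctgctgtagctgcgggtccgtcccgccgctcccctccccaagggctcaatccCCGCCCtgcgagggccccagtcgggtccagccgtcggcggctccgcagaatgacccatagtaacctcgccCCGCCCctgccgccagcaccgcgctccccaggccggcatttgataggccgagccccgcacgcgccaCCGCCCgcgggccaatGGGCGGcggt
Agpat2 (chr2:26604418-26604667, minus strand): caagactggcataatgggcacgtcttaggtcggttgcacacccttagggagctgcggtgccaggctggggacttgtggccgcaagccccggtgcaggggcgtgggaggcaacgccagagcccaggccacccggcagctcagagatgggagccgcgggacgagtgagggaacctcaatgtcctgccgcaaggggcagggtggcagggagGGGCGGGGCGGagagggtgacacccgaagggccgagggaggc

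The Fabp1 window held TATAAA 30 bases before the start and TGACCT at 67 and 9 bases before it, and the Fabp2 window held none of the marked motifs. Acsl3 had 5 matches to GGGCGG on either strand and Agpat2 had 2 that overlap, at 42 and 37 bases before the start. Over the 28 genes, AGGTCA on either strand was found in 6 (Apoc2, Cd36, Creb3l3, Fabp1, Plin2 and Slc27a2), against 14.02% of all 32851 windows. TATAAA on either strand was found in 5 genes against 12.37% of windows, and GGGCGG in 14 genes against 32.74%. A gene was counted if any of its windows held the motif, so gene counts and window shares are not the same measure. These 3 motifs were chosen with the sequences in view, and a match is a description of letters and not of binding. A further 4 motifs, searched on both strands, were in none of the 34 windows of the 28 genes. Of all windows, 0.3835% held CAAAGTCCA and 0.4262% held its variant CAAAGGTCA. The motif TGACGTCA was in 1.546% and the motif AGATAAG in 2.737% of all windows.

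Per kilobase of annotated exon, the most abundant transcripts of the control duodenum were those of the secreted and cytosolic carriers. Apoa4, an apolipoprotein made in the enterocyte during fat absorption, stood at 12177 ± 2169 CPM per kb (SD, n = 4). It was followed by the fatty acid binding protein Fabp1 at 5048 ± 1056 and by Apoa1, the main protein of high density lipoprotein, at 4874 ± 774 CPM per kb. Gpat4 and Acsl3 were the least abundant tested members there, at 8.08 ± 0.36 and 11.6 ± 2.37 CPM per kb. The order at the top was another in the control ileum, where the fatty acid binding protein Fabp2 (2197 ± 1851 CPM per kb) and Apoa1 (2153 ± 847) led, with overlapping spreads, and Apoa4 came after them at 1218 ± 524. The members together took 5.83% to 7.48% of all counts in control duodenum, 2.88% to 6.48% in mutant duodenum, 2.51% to 4.37% in control ileum and 1.99% to 3.32% in mutant ileum.

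**Figure D1:**
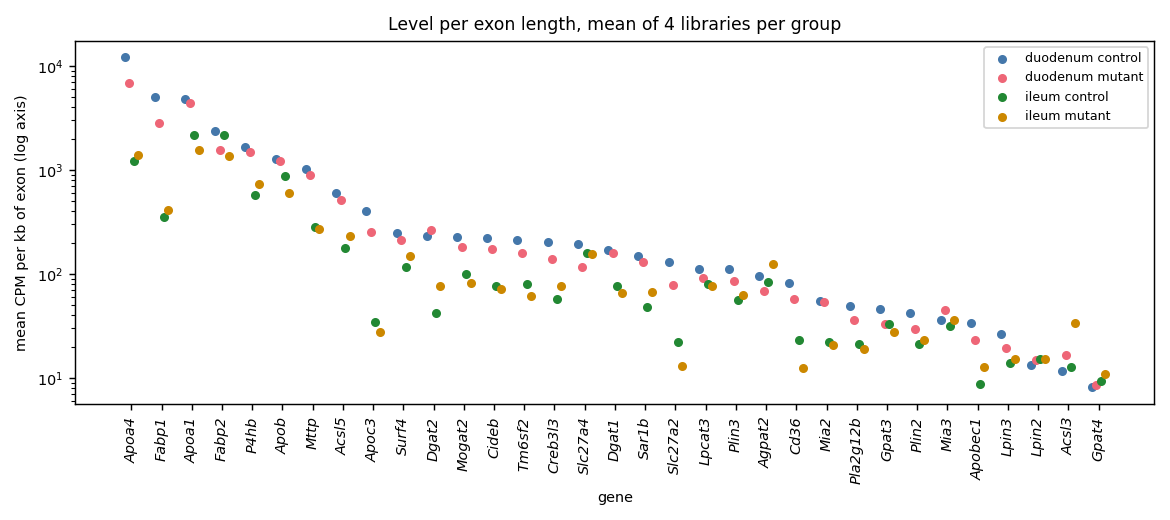
Mean level of each tested gene in CPM per kilobase of exon (log axis), as the mean of 4 libraries in each of the 4 groups, with genes ordered by their level in the control duodenum. Apoa4 leads in the duodenum at 12177 CPM per kb, and Fabp2 and Apoa1 lead in the ileum at 2197 and 2153.

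The members fell together from duodenum to ileum in control mice. Of the 33 tested, 26 were lower in the ileum, where 30.3% of all genes tested were lower, and 1 was higher, where 28.0% of all genes were higher. The median difference of the members was −1.19 on the log2 scale, beside −0.005 over all genes tested. Within each control mouse the same direction was seen: 27 members were lower in the ileum in 4 of 4 mice, 1 was higher in 4 of 4, and 5 were mixed. Agreement between mice and overlap of groups between the regions were not counted over all genes, so they have no background here. In bulk tissue, fewer enterocytes and less RNA per enterocyte cannot be told apart. 9 of 12 brush border markers, which mark enterocytes, were also lower in the control ileum and 2 were higher, with a mean level of 11.3 to 11.5 log2 CPM in the duodenum and 10.2 to 10.7 in the ileum. All 7 smooth muscle markers were higher in the ileum, their summed level being 710 to 1015 CPM in the duodenum and 1992 to 2900.1 CPM in the ileum. Of 8 adipocyte markers 5 were higher and 1 lower in the control ileum, and of 7 macrophage and dendritic markers 6 were lower and 0 higher. The part of tissue make-up in the members' difference was not tested.

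Among the uptake and carrier genes, Fabp1, which encodes the liver-type fatty acid binding protein, had the largest regional difference. The duodenum libraries held 2567, 3646, 2624 and 2328 CPM of it and those of the ileum 194, 242, 153 and 186 CPM, a log2 difference of −3.84 (SE 0.19, adjusted p = 2.39e-07). The highest ileum library lay far below the lowest duodenum library for Fabp1. Slc27a2, a very-long-chain acyl-CoA synthetase of the fatty acid transport protein family, stood at 562, 527, 454 and 399 CPM in the duodenum, against 97.3, 109.6, 63.6 and 61.8 CPM for the ileum, a difference of −2.54 (SE 0.21, adjusted p = 7.94e-06). Cd36, the scavenger receptor that binds long-chain fatty acids, was also lower, by −1.80 (SE 0.22, adjusted p = 0.000117). The groups did not overlap for these 3 genes.

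The intestinal binding protein Fabp2 was unlike Fabp1. The control duodenum libraries held 1937, 3609, 2107 and 1464 CPM of Fabp2, those of the ileum 1324, 4779, 940.3 and 1435 CPM. The groups overlapped, control mouse 2 was the highest in both tissues, and the difference was −0.10 (SE 0.57, adjusted p = 0.897). Without control mouse 2 the difference was −0.53 with an adjusted p of 0.0382, so the absence of a call rests on that mouse. The ratio of Fabp1 to Fabp2, per kilobase, was 1.76 to 2.78 in control duodenum and 0.0883 to 0.284 in control ileum. This ratio was chosen after its values were seen and is given without a test. Slc27a4, a fatty acid transport protein of the enterocyte endoplasmic reticulum, did not pass the test either (−0.28, SE 0.19, adjusted p = 0.225). With the mouse as a block, a fit that compares the tissues within each animal, Slc27a4 was lower in the ileum of controls at an adjusted p of 0.0303.

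The exchangeable apolipoproteins had the other extreme regional differences. Apoc3, an inhibitor of triglyceride clearance, had 441, 532, 366 and 294 CPM in the duodenum of controls, against 30.1, 61.5, 19.1 and 27.4 CPM in their ileum, a difference of −3.55 (SE 0.41, adjusted p = 0.000265). Apoa4 had 23049.6, 27257, 18618 and 19477 CPM in the duodenum, against 2079, 3586, 1460.5 and 1716 CPM in the ileum, a difference of −3.31 (SE 0.29, adjusted p = 8.9e-06). The difference of Apoa1 was −1.17 (SE 0.26, adjusted p = 0.00303), and the groups did not overlap for any of these 3 genes. Apoc2, the cofactor of lipoprotein lipase, had 0 to 9 counts per library and was not tested. Of its annotated exon bases, 79.5% are shared on the same strand with the gene model Gm44805, and reads in shared exons may not have been counted for either gene, so its level is uncertain.

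All 7 genes of particle assembly were lower in the control ileum. Apobec1, the enzyme that edits the Apob transcript, fell by 1.95 (SE 0.10, adjusted p = 2.66e-07), and Mttp, the transfer protein that loads lipid onto apolipoprotein B, fell by 1.83 (SE 0.19, adjusted p = 2.16e-05). P4hb, the partner subunit of Mttp (−1.52), and Tm6sf2, which acts in lipid loading of the particle (−1.38), were lower too. Apob itself, the structural protein of the chylomicron, fell by 0.52 (SE 0.20, adjusted p = 0.0443), with overlapping groups. Its call was lost with the mouse as a block (adjusted p = 0.0578) and without control mouse 1, 3 or 4, where the adjusted p was 0.293, 0.160 and 0.139. The Apob call was also lost with DESeq2 size factors, all 16 libraries in 1 fit or the listed pancreas genes removed (adjusted p = 0.0542, 0.0681 and 0.0605). Pla2g12b, which acts in lipid loading of the particle as well, and the lysophospholipid acyltransferase Lpcat3 differed by −1.22 and −0.50, and the call of Lpcat3 was lost without control mouse 1, 3 or 4 (adjusted p = 0.160, 0.0766 and 0.142).

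The genes of triglyceride synthesis did not all differ in the same way. The diacylglycerol acyltransferases Dgat2 and Dgat1, of the last step, differed by −2.45 (SE 0.29, adjusted p = 0.000134) and −1.12 (SE 0.19, adjusted p = 0.000585). Mogat2, which acylates monoacylglycerol in the main intestinal pathway, was lower (−1.19). Of the genes of the glycerol phosphate pathway, the phosphatidate phosphatase Lpin3 was lower (−0.92), and its paralog Lpin2 did not pass the test (0.18). Gpat3 fell by 0.49 (adjusted p = 0.00825), while Agpat2 did not pass (−0.20). The adjusted p of Gpat3 was 0.0628 without control mouse 1 and 0.0932 in the fit of all 16 libraries. Gpat4, a glycerol phosphate acyltransferase, was the 1 member that was higher in the control ileum: its duodenum libraries held 53.7, 52.1, 52.6 and 57.4 CPM and those of the ileum 69.7, 54.3, 62.9 and 60.9 CPM. Its difference was 0.21 (SE 0.08, adjusted p = 0.0492), the groups overlapped, and the call was lost without control mouse 1, 3 or 4 (adjusted p = 0.171, 0.182 and 0.0720).

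Of the acyl-CoA synthetases, Acsl5 fell by 1.75 (SE 0.24, adjusted p = 0.000147) and Acsl3 did not pass the test (0.13, SE 0.14). Of the genes for export from the endoplasmic reticulum, Sar1b, the small GTPase of the chylomicron carrier (−1.61), the receptor Mia2 (−1.29) and the cargo receptor Surf4 (−1.05) were lower, while Mia3 did not pass the test (−0.17, adjusted p = 0.0764). The lipid droplet proteins Cideb (−1.50), Plin2 (−0.999) and Plin3 (−0.99) were lower. Creb3l3, a membrane-bound transcription factor of lipoprotein genes, fell by 1.84 (SE 0.23, adjusted p = 0.000119).

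**Figure D2:**
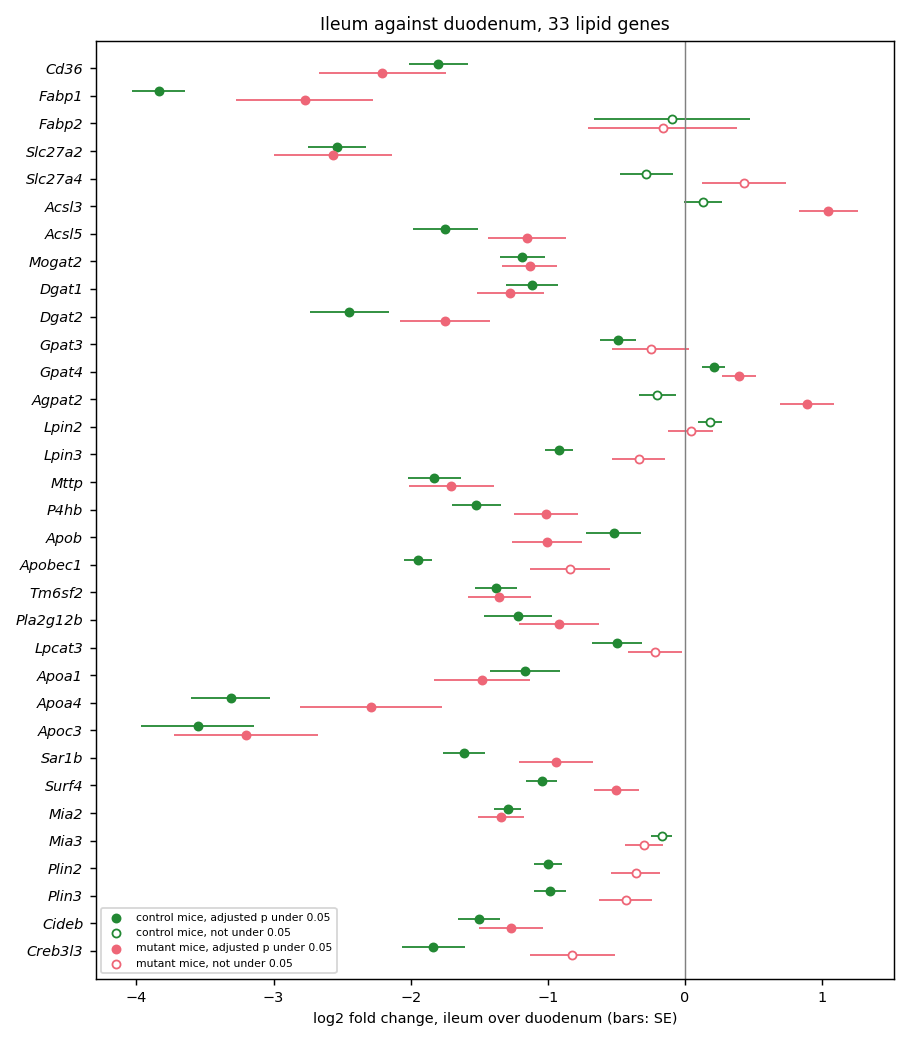
Log2 difference between ileum and duodenum for each tested gene, in control and in mutant mice, with bars for the standard error and filled points for an adjusted p under 0.05. Fabp1, Apoc3, Apoa4 and Slc27a2 lie furthest to the left in both genotypes, and Agpat2 and Acsl3 lie near 0 in controls and at 0.89 and 1.04 in mutants.

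In mutant mice the regional difference had the same main direction. 19 of 33 members were lower in the ileum, where 18.2% of all genes tested were lower, and 3 were higher, where 12.9% of all genes were higher. The members' median was −0.94, beside −0.01 over all genes tested. With the mouse as a block, 25 were lower and 4 higher in mutants, against 21.8% and 17.1% of all genes, and in controls 26 were lower and 1 higher, against 32.0% and 29.8%. The genes lower in mutants with the block but not without it were Lpin3, Apobec1, Mia3, Plin2, Plin3 and Creb3l3, and Slc27a4 was higher with it (0.46, adjusted p = 0.0311). The same 4 genes led: Apoc3 (−3.20, SE 0.52), Fabp1 (−2.77, SE 0.50), Slc27a2 (−2.57, SE 0.43) and Apoa4 (−2.29, SE 0.52). The mutant duodenum libraries held 2346, 1312, 2055 and 575 CPM of Fabp1, those of the ileum 243, 135, 380.4 and 152 CPM. For Apoc3 these were 403, 164, 298 and 167.1 CPM for the duodenum, against 31.1, 9.66, 45.4 and 25.2 CPM for the ileum. For both genes mutant mouse 4 or 2 was lowest in each tissue, and the tissues did not overlap. Both comparisons of region share no libraries, but they share the tissue make-up given above. In the mutant ileum all 7 smooth muscle markers were higher, and of 12 brush border markers 8 were lower and 1 higher. Of 7 adipocyte markers tested there 5 were higher and 0 lower, and of 7 macrophage and dendritic markers 6 were lower and 0 higher. All 11 exocrine pancreas markers tested were lower in the mutant ileum. Their part was not tested.

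The 3 members higher in the mutant ileum were Acsl3 (1.04, SE 0.22, adjusted p = 0.00443), Agpat2 (0.89, SE 0.19, adjusted p = 0.00546) and Gpat4 (0.39, SE 0.13, adjusted p = 0.0347). Each was higher in the ileum in 4 of 4 mutant mice, and the groups did not overlap. The call of Gpat4 was lost without mutant mouse 1, 2 or 3, where its adjusted p was 0.121, 0.124 and 0.115. The calls of Cd36 (−2.21, SE 0.47, adjusted p = 0.00888), Apob (−1.01), Pla2g12b (−0.92), Sar1b (−0.94) and Surf4 (−0.50) in mutants were each lost on leaving out at least 1 mouse. Without mutant mouse 3 their adjusted p-values were 0.0589, 0.0589, 0.0822, 0.0533 and 0.103. Leaving out mutant mouse 1 ended the calls of Pla2g12b, Sar1b and Surf4, at adjusted p-values of 0.0774, 0.0797 and 0.167. Leaving out mutant mouse 4 ended those of Pla2g12b and Surf4, at 0.0826 and 0.0931, and leaving out mutant mouse 2 that of Cd36, at 0.0607. With no low count filter the calls of Pla2g12b, Sar1b, Surf4 and Apoa4 were lost (adjusted p = 0.134, 0.0857, 0.0597 and 0.0519). That of Surf4 was lost with DESeq2 size factors (0.0573) and with the listed pancreas genes removed (0.0518) as well.

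Between the genotypes, no member passed the test in the duodenum. 0 of 33 members were higher and 0 lower, where 3.44% and 5.11% of all genes tested were. 9 of the 33 had an unadjusted p under 0.05, against 29.2% of all genes, and the smallest adjusted p was 0.0687, for Plin2. DESeq2 called 0 higher and 3 lower, against 7.81% and 8.97% of all genes: Plin2 (adjusted p = 0.0295), Agpat2 (0.0373) and Slc27a4 (0.0378). Of the estimates, 28 were negative and 5 positive, and the median was −0.33 beside 0.02 over all genes.

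The members did not stand at the same level in the libraries of the mutant duodenum. In the duodenum the median member was 0.36 and 0.37 above its group mean, on the log2 scale, in mutant mice 1 and 3, and 0.27 and 0.42 below it in mutant mice 2 and 4. Without mutant mice 2 and 4 the median difference of the members was −0.03, with 19 negative and 14 positive estimates. Leaving out the lowest libraries of a group raises the median in any case. Without mutant mouse 2 alone it was −0.26 with 27 negative estimates, and without mutant mouse 4 alone −0.20 with 25. Mutant mice 2 and 4 had 15.3% and 14.98% of duodenum counts from exocrine pancreas genes, against 0.744% and 3.55% in mutant mice 1 and 3. Their mean brush border level was 10.9 and 10.7 log2 CPM, against 11.6 and 11.5 in mutant mice 1 and 3. With the 12 listed pancreas genes removed before normalisation the median was −0.34. With the mean brush border level as covariate it was −0.19, with 24 negative and 9 positive estimates, taken relative to brush border transcripts. The part of these differences in the members' levels was not tested further.

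4 of 33 members had non-overlapping groups in the duodenum, all lower in mutants, against 18.6% of all genes in either direction. They were Mogat2 (−0.32), Agpat2 (−0.49), Lpin3 (−0.44) and Tm6sf2 (−0.40), with adjusted p-values of 0.144, 0.0749, 0.130 and 0.140. Agpat2, which makes phosphatidic acid in the endoplasmic reticulum, measured 198, 231, 192 and 199 CPM in controls and 144, 101, 182 and 153 CPM in mutants. Plin2, the coat protein of lipid droplets, measured 154.4, 161, 150.8 and 129 CPM in controls and 112, 88.6, 135.7 and 82.2 CPM in mutants, with a difference of −0.50 (SE 0.15). For Plin2 mutant mouse 3 overlapped control mouse 4, and without mutant mouse 3 its adjusted p was 0.0209. Leaving out mutant mouse 3 also brought Agpat2 (adjusted p = 0.0355) and Apobec1 (0.0385) past the threshold, and leaving out mutant mouse 1 brought Slc27a4 (0.0484), Apoc3 (0.0479) and Tm6sf2 (0.0491) past it, all lower. The estimates of the most abundant carriers were wide: −0.81 (SE 0.37) for Fabp1, −0.80 (SE 0.39) for Apoa4 and −0.59 (SE 0.47) for Fabp2. Apob (−0.04, SE 0.26), Mia2 (−0.03, SE 0.16) and Dgat1 (−0.07, SE 0.19) had the estimates nearest to 0.

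In the ileum 4 members were higher in mutants, where 19.0% of all genes tested were higher, and 1 was lower, where 14.6% were lower. The members' median was 0.02, beside −0.03 over all genes, and 11 of 33 had an unadjusted p under 0.05, against 44.0% of all genes. The groups did not overlap for 4 of 33 members (3 of the higher genes and the lower gene), against 32.8% of all genes in either direction. The 4 higher genes encode enzymes of acyl-CoA activation and triglyceride synthesis, and the lower gene was Cd36. The fit that compares these groups holds only the 8 ileum libraries.

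Acsl3, an acyl-CoA synthetase of the endoplasmic reticulum and lipid droplets, rose the most. It measured 58.4, 62.5, 48.6 and 50.1 CPM in control ileum and 189, 146, 149 and 103 CPM in mutant ileum, a log2 difference of 1.45 (SE 0.17, adjusted p = 0.00019). The lowest mutant value lay above the highest control value, and the call was held in every alternative fit, with adjusted p-values from 9.95e-14 to 0.00372. Of its exon bases, 5.60% are shared with Utp14b. In the duodenum Acsl3 measured 41.4, 65.2, 47.7 and 47.3 CPM in controls and 62.3, 54.6, 102 and 69.6 CPM in mutants, a difference of 0.53 (SE 0.20) that did not pass the test (adjusted p = 0.116). Acsl5, the most abundant synthetase of the pair, measured 676, 1377, 666 and 772 CPM in control ileum and 1304, 801, 1385 and 977 CPM in mutant ileum. Its difference of 0.38 (SE 0.27, adjusted p = 0.304) did not pass, and without control mouse 2, the high control, it was 0.70 with an adjusted p of 0.0172.

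Dgat2, Agpat2 and Gpat4 of triglyceride synthesis rose in the mutant ileum. Dgat2 measured 138, 147, 122 and 117 CPM in controls and 214, 184, 355 and 199 CPM in mutants, a difference of 0.89 (SE 0.19, adjusted p = 0.00608), with no overlap. Agpat2 measured 194, 200.5, 127 and 187 CPM in controls and 287, 199, 332 and 244 CPM in mutants, a difference of 0.61 (SE 0.18, adjusted p = 0.0244). Mutant mouse 2 lay just below control mouse 2, and the call was lost without mutant mouse 1 or 3 (adjusted p = 0.0603 and 0.0585). Gpat4 measured 69.7, 54.3, 62.9 and 60.9 CPM in controls and 69.8, 73.1, 71.1 and 79.0 CPM in mutants, a difference of 0.27 (SE 0.09, adjusted p = 0.0357). The Gpat4 groups nearly touched, and its call was lost without control mouse 2, 3 or 4 or mutant mouse 3 or 4, with adjusted p-values of 0.0569 to 0.0982. In a fit of all 16 libraries Dgat2 and Gpat4 did not pass (adjusted p = 0.0547 and 0.0967), and with no low count filter Gpat4 did not (0.0522).

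Dgat1, the other enzyme of the last step, did not pass in the ileum (−0.22, SE 0.26, adjusted p = 0.556). The ratio of Dgat2 to Dgat1, per kilobase, was 0.418 to 0.680 in control ileum and 0.974 to 1.33 in mutant ileum, and 0.711 to 1.80 and 1.23 to 2.26 in control and mutant duodenum. In the ileum the ratios of the genotypes did not overlap, and in the duodenum they did. The ratio was chosen after its values were seen and has no test. Of the other enzymes of the group, Mogat2 (−0.26), Gpat3 (−0.23), Lpin2 (0.02) and Lpin3 (0.15) did not pass either.

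Cd36 was lower in the mutant ileum. It measured 75.9, 90.2, 81.3 and 84.6 CPM in controls and 38.3, 51.8, 49.8 and 37.6 CPM in mutants, a difference of −0.87 (SE 0.13, adjusted p = 0.00053). The highest mutant value was well below the lowest control value, and the call was lost only in the fit of all 16 libraries (adjusted p = 0.0823), of the alternatives run. In the duodenum the Cd36 libraries spread from 196 to 434 CPM in controls and from 60.8 to 332 CPM in mutants, and the difference of −0.47 (SE 0.50) did not pass. Cd36 is also made by macrophages, capillary endothelium and fat cells. Of 7 macrophage and dendritic markers, 6 were lower in the mutant ileum and 0 higher, their summed level being 159 to 217 CPM in controls and 88.5 to 136.1 CPM in mutants. Of 7 endothelial markers, 3 were lower (Kdr −0.60, Prox1 −0.41, Cdh5 −0.30) and 1 higher (Lyve1 0.87). Of 8 adipocyte markers, 1 was lower and 2 higher, and Adipoq stood at 4.14 to 6.50 CPM in controls and 1.20 to 10.1 CPM in mutants. The part of these cells in the Cd36 difference was not tested.

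No other carrier passed in the ileum. Fabp1 measured 194, 242, 153 and 186 CPM in controls and 243, 135, 380.4 and 152 CPM in mutants (0.26, SE 0.32), and Fabp2 had a difference of −0.65 (SE 0.65). Slc27a2 did not pass (−0.74, SE 0.30, adjusted p = 0.0917), but was called lower by DESeq2 (−0.75, adjusted p = 0.0158) and without mutant mouse 3 (−0.997, adjusted p = 0.0186), and Slc27a4 was at −0.0026 (SE 0.26). The 7 genes of particle assembly ranged from −0.52 for Apob (SE 0.20, adjusted p = 0.0623) to 0.57 for Apobec1 (SE 0.20, adjusted p = 0.0545), and 0 were called. DESeq2 called Apob lower (−0.53, adjusted p = 0.0252) and Apobec1 higher (0.57, adjusted p = 0.0268). Without mutant mouse 2 the difference of Apobec1 was 0.77 (adjusted p = 0.000835), and without mutant mouse 1 that of Apob was −0.65 (adjusted p = 0.034). Sar1b (0.51, adjusted p = 0.0689) and Surf4 (0.35, adjusted p = 0.0576) lay above 0, and Mia2 (−0.06) and Mia3 (0.21) did not pass. DESeq2 called Sar1b higher (0.50, adjusted p = 0.0424). The apolipoproteins Apoa1 (−0.45), Apoa4 (0.22) and Apoc3 (−0.29) had standard errors of 0.38, 0.45 and 0.54. Plin2 (0.16), Plin3 (0.18), Cideb (−0.09) and Creb3l3 (0.47) did not pass. Without control mouse 2, 8 members were higher in the mutant ileum, against 16.9% of all genes: Acsl3, Dgat2 and Agpat2 with Acsl5, P4hb, Sar1b, Surf4 and Creb3l3. Without mutant mouse 2, 7 of 33 were higher, against 21.7% of all genes, a share near that over all genes: the 4 named above with Apobec1, Sar1b and Surf4.

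**Figure D3:**
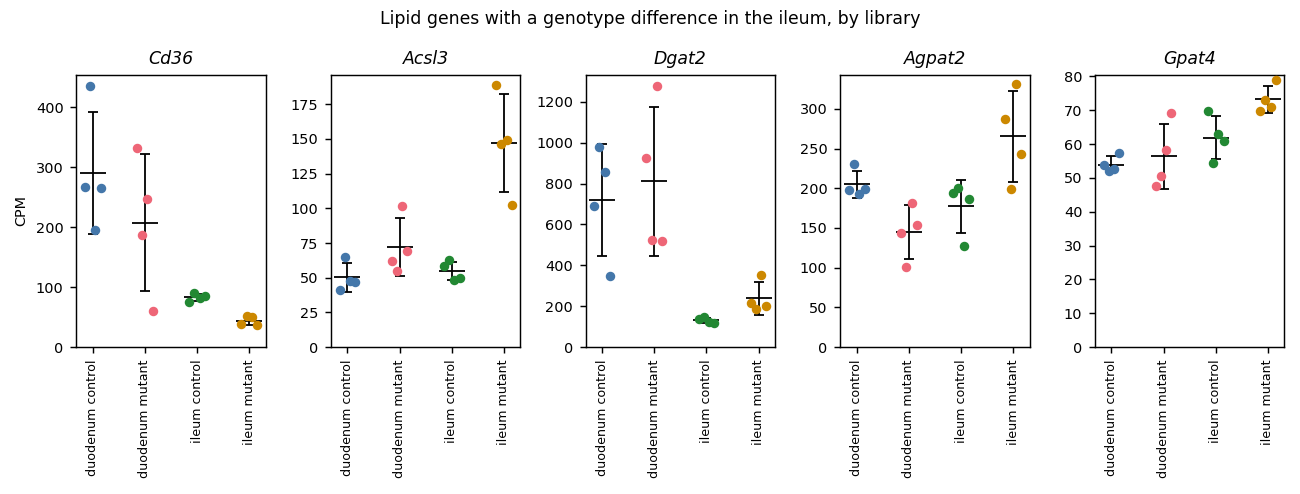
CPM of the members called between genotypes in the ileum, one point per library, in the 4 groups, with a line for the group mean and bars for the SD. Acsl3, Dgat2 and Gpat4 lie higher and Cd36 lower in every mutant ileum library than in any control ileum library, and Agpat2 overlaps by 1 mutant library.

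Beside these differences, 5 of 12 brush border markers were lower in the mutant ileum and 0 higher, among them Anpep (−1.31), Dpp4 (−1.01), Lct (−2.23) and Cdhr5 (−0.68). Their mean level was 10.2 to 10.7 log2 CPM in controls and 9.31 to 10.1 in mutants, so the groups did not overlap on that measure. Their summed level did overlap, at 24809 to 32360 CPM in controls and 15421 to 26557 CPM in mutants. Of 9 lymphocyte and follicle markers 8 were lower in the mutant ileum and 0 higher, their summed level being 34.7 to 156 CPM in controls and 9.11 to 17.3 CPM in mutants. Of 8 crypt and proliferation markers 4 were higher, among them Mcm5 (1.09), and 1 was lower, Olfm4 (−1.28). The part of these cells in the members' differences was not tested. With the mean brush border level as covariate, 20 members were higher and 1 lower in the mutant ileum, against 14.7% and 9.42% of all genes. The positive estimates went from 17 to 31 of 33, and 8 of the members that changed sign also passed as higher. Among these 8 were Mttp, from −0.04 to 1.03, and Slc27a4, from −0.0026 to 0.94. The covariate differs between the genotypes, so these values are relative to brush border transcripts and do not replace the levels above. Cd36, Acsl3, Dgat2 and Agpat2 kept their direction and call with it, and Gpat4 lost its call (0.11, adjusted p = 0.582).

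**Figure D4:**
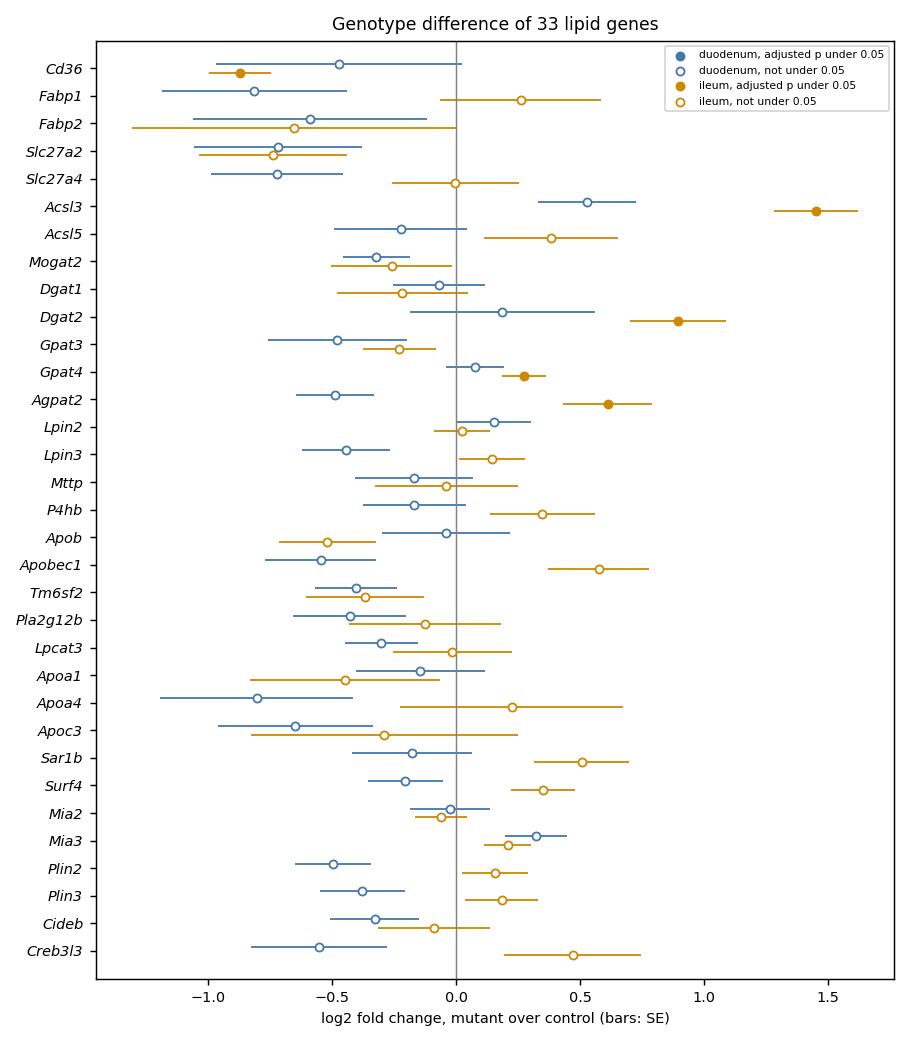
Log2 difference between mutants and controls for each tested gene in the duodenum and in the ileum, with bars for the standard error and filled points for an adjusted p under 0.05. In the duodenum 28 of 33 estimates lie below 0 and none passed, and in the ileum the estimates lie on both sides of 0 with 5 that passed.

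The difference between the tissues was itself tested, as the mutant effect in the ileum minus that in the duodenum. 1 member was higher and 0 lower, against 4.86% and 4.13% of all genes. 8 of 33 had an unadjusted p under 0.05, against 30.4% of all genes. That member was Agpat2, with a difference of 1.08 (SE 0.26, adjusted p = 0.0211) from −0.49 in the duodenum and 0.61 in the ileum. The call was lost without any 1 of the control mice or mutant mouse 1, with adjusted p-values of 0.0515 to 0.0713. DESeq2 called 5 higher and 0 lower, against 9.12% and 7.40% of all genes: Agpat2, Acsl3, Apobec1, Plin2 and Surf4.

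By the mouse numbers in the titles, both tissues came from the same mice. With the mouse as a block 13 members were higher and 0 lower, against 10.8% and 10.0% of all genes. These were Agpat2 (1.11, adjusted p = 0.0013), Creb3l3 (1.11), Apobec1 (1.12), Lpin3 (0.61), Plin3 (0.56), Sar1b (0.69), Plin2 (0.65), Slc27a4 (0.75), Surf4 (0.55), Fabp1 (1.12), Apoa4 (1.11), Acsl3 (0.90) and Acsl5 (0.70), with adjusted p-values up to 0.0345. Each had a mutant effect that was higher, or less low, in the ileum than in the duodenum of the same animals. They come from the carriers, the acyl-CoA synthetases, triglyceride synthesis, particle assembly, the apolipoproteins, export, the lipid droplet coats and the transcription factor, while Mogat2 (0.05), Dgat1 (−0.12), Mttp (0.15), Apob (−0.48) and Tm6sf2 (0.04) did not pass with the block. The block compares each mouse's ileum with its own duodenum. In mutant mice 2 and 4 exocrine pancreas genes took 15.3% and 14.98% of counts in the duodenum, and 0.368% and 0.201% in the ileum. Without these 2 mice and without the block, 2 members were higher, Agpat2 and Apobec1, and 0 lower, against 4.61% and 1.82% of all genes.

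The members moved together from library to library, least so in the control duodenum. Control mouse 2 held the highest value of its group for 22 of 33 members in the duodenum and for 28 in the ileum. In the mutant duodenum mouse 4 was the lowest for 19 members and mouse 2 for 12, and mouse 1 was the highest for 16 and mouse 3 for 15. In the mutant ileum mouse 2 was the lowest for 27 members and mouse 4 for 4, and mouse 3 was the highest for 23 and mouse 1 for 6. Control mouse 3 was the lowest for 26 members in the ileum. The median member of the ileum stood 0.38 above its group mean in control mouse 2 and 0.32 below it in control mouse 3, and 0.35 above in mutant mouse 3 and 0.45 below in mutant mouse 2. In the control duodenum the median member stood only between −0.07 and 0.17 from its group mean. The spread within the other groups is thus largely shared among the members, and the standard errors of different members are not independent. The same counts were not made over all genes.

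**Figure D5:**
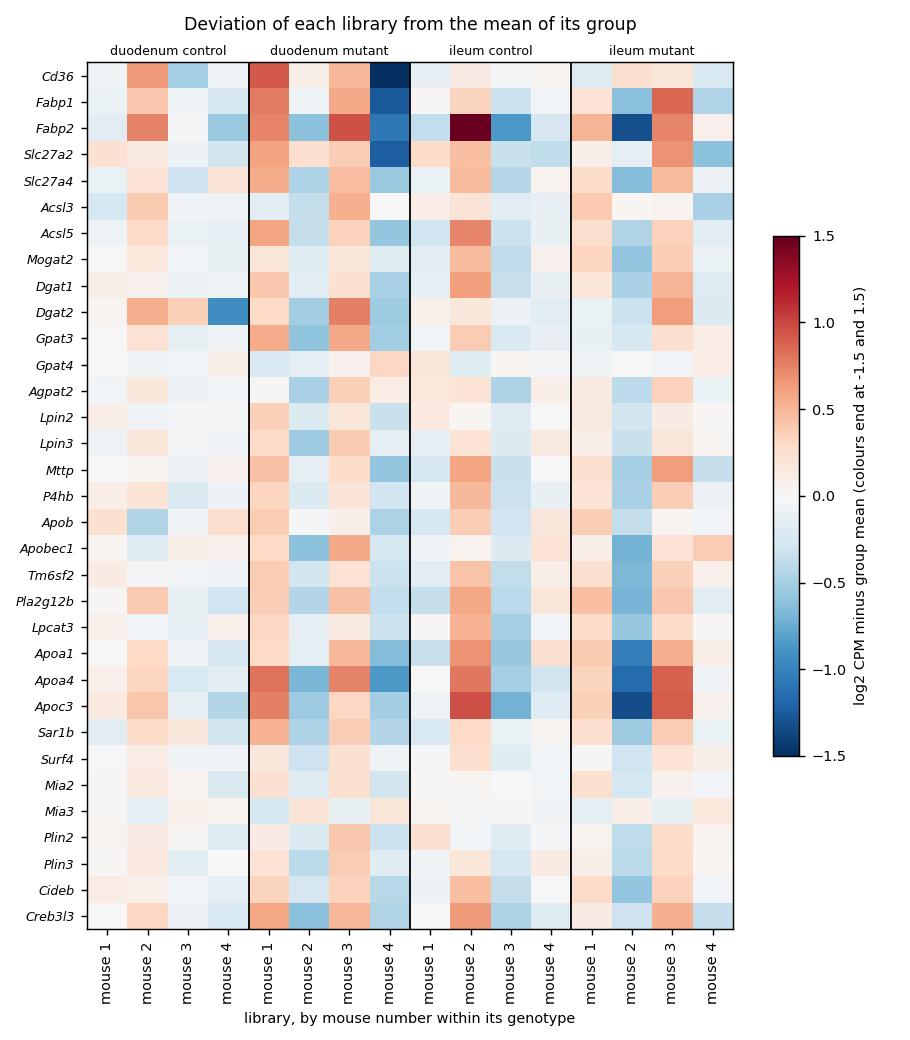
Deviation of each tested gene from its group mean, in log2 CPM, for the 16 libraries (rows are genes, columns libraries). Columns of control mouse 2 and mutant mouse 3 are mostly above 0 and those of mutant mouse 2 mostly below 0 in both tissues.

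Other genes of the same pathways were listed for comparison. In the mutant ileum, 6 of 16 further genes of the COPII coat and export from the endoplasmic reticulum were higher and 0 lower, among them Sec13 (0.77), Sec23b (0.67), Preb (0.47) and Sar1a (0.37), and in the duodenum 0 of 16 were called in either direction. Of 11 further genes of uptake and activation tested in the ileum, 3 were higher (Got2 0.80, Acsl1 0.61, Slc27a1 0.88) and 1 lower (Acsl6 −0.60). In the duodenum 2 of 12 were higher, the synthetases Acsl1 (0.48, adjusted p = 0.029) and Acsl4 (0.51, adjusted p = 0.0351). Of 8 further genes of triglyceride synthesis in the ileum, 3 were higher (Agpat5 0.75, Gpam 0.56, Agpat4 0.52) and 1 lower (Agpat3 −0.36), and in the duodenum Gpam, the mitochondrial glycerol phosphate acyltransferase, was the 1 of 7 that was called (0.75, adjusted p = 0.0434). Acsl1 and Gpam therefore passed in both tissues. Of 12 further lipid droplet genes, G0s2, an inhibitor of lipolysis, was lower in the duodenum (−1.58, adjusted p = 0.0262), and Hilpda was higher in the ileum (0.75, adjusted p = 0.0344).

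Among apolipoproteins outside the members, Apoe was lower in the mutant duodenum: its mean was 281 ± 26.4 CPM in controls and 142 ± 21.4 CPM in mutants (SD, n = 4), a difference of −0.97 (SE 0.13, adjusted p = 0.00225). Apoe is made by macrophages too, and 6 of 7 macrophage markers were lower there; their part was not tested. In the ileum Apoc1 rose by 2.34, from a mean of 0.181 to 0.885 CPM. Of 17 transcription factors of enterocyte lipid genes, 1 was higher and 4 lower in the mutant ileum. Pparg, the fatty acid receptor, rose by 1.36 (SE 0.25, adjusted p = 0.00315), and Thrb (−0.94), Ppargc1a (−0.77), Hnf4g (−0.49) and Rxra (−0.34) were lower. In the duodenum 1 of 17 was lower, the oxysterol receptor gene Nr1h3 (−0.63, adjusted p = 0.0236), and 0 were higher.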

How the data were processed

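Total RNA of 16 libraries, from the duodenum and ileum of 4 control and 4 mutant mice, was sequenced after ribosomal depletion with a stranded kit, per the labels' protocols. The authors deposited 1 table of raw read counts per gene. Per the submitters' processing notes, cutadapt 1.10, Bowtie2 2.2.8, STAR 2.5.3a, HTSeq 0.6.1p1 and assembly mm39 were used; the annotation and the strand setting of the counting were not given in the sources used here. Ensembl IDs were named with GENCODE M21, which named 52083 of 55359 genes. The other 3276 held 1.02% of counts and stayed in the fits.

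Genotype in each tissue, tissue in each genotype and their interaction were tested with edgeR 4.0.16 in R 4.3.3 (low count filter filterByExpr, TMM normalisation, robust quasi-likelihood F test, Benjamini-Hochberg adjustment over all genes tested). Each genotype or tissue comparison was fitted on its 8 libraries and the interaction on all 16. The standard error is the log2 fold change divided by the square root of F. CPM use TMM library sizes over all 16 libraries, and levels are compared between genes only per kilobase of GENCODE M21 exon (GRCm38). A group has 4 mice, and depth was 40.9 to 67.2 M counts per library, so counting error is small beside the spread between mice for all members but Apoc2. The script was tested on simulated data.

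The mouse number in the titles was read as the same animal in both tissues, which the labels do not state in words. Deviations from group means correlated between the tissues of the same mouse at 0.22 to 0.48 in all 8 mice, and 7 of 8 mice matched their own other tissue best, so fits with the mouse as replicate block are given where they change a call. Alternatives were limma-voom (limma 3.58.1), DESeq2 1.42.0, DESeq2 size factors, no filter, all libraries in 1 fit, removal of pancreas genes, a brush border covariate and leaving out mice. Only the 12 listed exocrine pancreas genes were removed, so other transcripts of pancreas cells stayed in that fit. Members called between genotypes, up to 8 per comparison, and the 4 with the largest called regional difference in each direction have their values in every library, the others their difference and counts; of each further list up to 4 genes with the smallest p are named, except 1 gene that is not reported here. The members and lists were chosen with earlier results of these data known.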

Additional observations from a re-analysis of the deposited data

Results flagged for a closer look

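In 132 groups of 4 libraries (33 genes in 4 groups), 3 had 1 library far from the others by Dixon's test, where chance gives about 1 in 20. All were high values of control mouse 2. Fabp2 measured 4779 CPM in its ileum, against 940.3 to 1435 CPM in the other control ileum libraries. Acsl5 measured 3590.0 CPM in its duodenum, against 2692 to 2783 CPM in the others, and 1377 CPM in its ileum, against 666 to 772 CPM. The effect of the genotype on Agpat2 differed between the tissues, by 1.08 on the log2 scale (ileum minus duodenum, edgeR adjusted p = 0.0211).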

How the results depend on the processing

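The count of members lower in the control ileum stayed within 23 to 27 under every alternative, from 26, and that in mutants within 14 to 25, from 19. Over all genes, 17788 to 32063 tested, 4425 to 5832 were lower in controls and 2406 to 4178 in mutants. Of the members higher in the mutant ileum against control ileum, 4 (19.0% of all genes) became 6 with DESeq2 (3614 of 18310 genes). They became 2 in the fit of all 16 libraries (3221 of 19289) and 20 with the brush border covariate (14.7%). Without mutant mice 2 and 4 they became 7 (3512 of 19216). Leaving out 1 mouse gave 2 to 8 members, and 2806 to 4025 of all genes. The 6 and the 7 were near the share over all genes. The 1 lower member became 3 with DESeq2 (3261 of 18310 genes) and 0 in the fit of all 16 libraries (3128 of 19289). Leaving out 1 mouse gave 1 to 2 lower members, and 1864 to 3116 of all genes. In the duodenum 0 lower members became 3 with DESeq2, near the share over all genes (8.97%). They became 1 in the fit of all 16 libraries (1289 of 19289 genes) and 2 with no filter (1045 of 31628). Leaving out 1 mouse gave 0 to 3 members, and 352 to 1114 of all genes.

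The 1 member with a tissue-dependent effect, where 4.86% of all genes were higher, became 5 with DESeq2 (9.12%). It became 3 with DESeq2 size factors (1150 of 19289 genes) and 3 with the listed pancreas genes removed (1185 of 19246). Without control mice 2 and 4 it became 0, where only 14 of 20053 genes were higher. Without mutant mice 2 and 4 it became 2 (4.61%). Leaving out 1 mouse gave 0 to 4 members, and 99 to 1166 of all genes. With the mouse as replicate block the 1 member became 13 (10.8%). The block, which fits only within-animal comparisons, otherwise changed the calls of Apob and Slc27a4 in control regions and of 7 members in mutant regions, all given above. The 1 member higher in the control ileum became 2 with DESeq2, 0 in the fit of all 16 libraries, 0 with limma-voom and 0 with no filter. It became 0 to 2 when leaving out 1 mouse. Over all genes tested, 18154 to 32063 in number, 3898 to 5479 were higher in these fits.

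With the brush border covariate 8 members changed sign in the mutant ileum and passed as higher: Slc27a4 0.94, Mogat2 0.62, Dgat1 0.78, Mttp 1.03, Pla2g12b 0.92, Lpcat3 0.81, Apoc3 1.49 and Cideb 0.74. Others changed sign without passing. That fit sets the members against brush border transcripts by construction. For the other changes the cause was not tested, other than that fits without mice hold fewer samples.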
